A study of Mus musculus with 11 samples.

Results

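The connexin genes Gja1, Gjb2, Gjb5 and Gjb6 were measured in all 11 RNA-seq libraries of sorted mouse epidermal cells. The 4 were chosen by name as connexins known from epidermis, out of 55536 genes counted in the series and beside 16 other connexin genes, and all 4 passed the filter on low counts. The cells came from the back skin of CD4Cre R26-tdT mice on a C57Bl6/N background, labelled male, in which Cre driven by Cd4 regulatory sequence switches on the red reporter tdT for good in every cell that has used it and in its descendants. All 4 groups carry both alleles, so tdTneg cells are reporter-negative cells of mice of the same genotype. The groups were tdT+ CD49f+CD34+ (3 libraries), tdTneg CD49f+CD34+ (3), tdT+ CD49f+CD34+SCA-1+ (3) and tdTneg CD49f+CD34+SCA-1+ (2). CD49f+CD34+ cells were sorted as SCA-1neg. Mice were 29 weeks old for replicate 1 and 32 weeks for replicates 2 and 3, and each replicate held cells of 2 pooled mice. Per the study's methods a replicate number names such a pool, whose cells were sorted into the populations. Cd4 is used by T cells and other leukocytes as well, which limits what the reporter marks. Libraries held 17409131 to 46542177 counts on genes.

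Connexins are membrane proteins with a pair of extracellular loops that assemble as hexamers, and hexamers of neighbouring cells dock into gap junction channels that pass ions, second messengers and small metabolites. Gja1 encodes connexin 43, the main connexin of basal keratinocytes. Gjb2 encodes connexin 26 and Gjb6 connexin 30, which can share a channel and are known in skin from hair follicles, thickened epidermis and wound edges. Gjb5 encodes connexin 31.1 of the epidermis. Mutations of the human counterparts of Gja1, Gjb2 and Gjb6 are known from disorders of the skin, the hair or hearing.

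On GRCm38 with the Ensembl annotation, Gja1 (ENSMUSG00000050953) lies on chromosome 10 from 56377330 to 56402513 on the plus strand. Gjb2 (chromosome 14, 57098600 to 57104702) and Gjb6 (chromosome 14, 57123303 to 57133611) lie 18600 bases apart on the minus strand. Gjb5 lies on chromosome 4 from 127354809 to 127358181 on the minus strand. None of the 4 overlaps another annotated gene (0 for each), so their counts do not depend on how reads on overlapping genes were assigned.

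The promoter windows of Gja1 and Gjb2 are shown because these were the members whose levels went together across libraries. Each holds the 250 bases before the RefSeq start on GRCm38.p6, 5′ to 3′ on the gene's strand, with chr10:56377050-56377299 (plus) for Gja1 and chr14:57104703-57104952 (minus) for Gjb2. Capitals mark the motifs searched on both strands, TGANTCA for AP-1 (the site of JUN and FOS factors), GGGCGG for a GC box and TATAAA.
Gja1: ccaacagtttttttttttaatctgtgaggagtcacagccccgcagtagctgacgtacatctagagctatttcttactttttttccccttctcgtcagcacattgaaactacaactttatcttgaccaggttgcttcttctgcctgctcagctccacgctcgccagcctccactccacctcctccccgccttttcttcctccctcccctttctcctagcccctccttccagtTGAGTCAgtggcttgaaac
Gjb2: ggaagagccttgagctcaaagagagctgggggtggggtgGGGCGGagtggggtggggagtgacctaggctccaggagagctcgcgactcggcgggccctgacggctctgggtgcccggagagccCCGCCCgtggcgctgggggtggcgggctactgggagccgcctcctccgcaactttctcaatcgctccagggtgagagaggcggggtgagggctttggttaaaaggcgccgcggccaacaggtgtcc
The Gja1 window held 1 AP-1 motif, 19 to 13 bases before the start, a motif found in 6.75% of 32851 promoter windows of this length. The Gjb2 window held 2 GC boxes, 1 on each strand, against a share of 32.7% of promoters with at least 1, and had 18 CpG dinucleotides and 69.2% GC against medians of 6 and 52.4%. The Gjb5 window held 1 TATAAA motif, 243 to 238 bases before the start on the opposite strand, found in 12.4% of promoters, and the Gjb6 window held none of the 3. The 2 windows shown share no motif of the 3.

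Before the values, 3 of the 6 CD49f+CD34+ libraries stood apart. In the libraries labelled tdT+ CD49f+CD34+ replicate 1, tdT+ CD49f+CD34+ replicate 2 and tdTneg CD49f+CD34+ replicate 2, Alb, the serum albumin of hepatocytes, stood at 9543, 4387 and 6086 CPM (counts-per-million, scaled by TMM), against 3.04 to 37.2 in the other 8. The summed CPM of 6 hepatocyte genes (Alb, Apoa1, Ttr, Fgb, Hp, Cps1) was 9296 to 19894 in these 3 and 7.17 to 73.8 in the others. The same 3 libraries had Xist, the RNA made from the inactive X chromosome of females, at 417, 1316 and 210 CPM, against 0.399 to 1.27 in the others, although the mice are labelled male. Of the 4 libraries of replicate 1 this was 1, and of the 4 of replicate 2 it was 2. Their 4 Y-linked genes summed to 91.0 to 230 CPM, below the 253 to 394 CPM of the other 8. These lists were chosen after the values were seen. Hepatocytes are known to use Gjb1 (connexin 32) and Gjb2 as their main connexins, so the main results are given with all 11 libraries and without these 3, which leaves 1 tdT+ CD49f+CD34+ library. A row outside the gene annotation, labelled by an accession only, stood at 133 to 307 CPM in 5 of the 6 tdT+ libraries and at 2.54 to 4.89 CPM in the tdTneg libraries. The library labelled tdT+ CD49f+CD34+ replicate 2 had 2.05 CPM, like the tdTneg libraries. The sorted markers followed the gates in RNA only in part. Ly6a, which encodes SCA-1, was at 9.63 to 59.2 CPM in tdT+ CD49f+CD34+ cells and 2.45 to 5.74 CPM in tdTneg CD49f+CD34+ cells. In SCA-1+ cells it was at 153 to 294 CPM. Cd34 was at 467 to 1129 CPM in CD49f+CD34+ cells, 319 and 382 CPM in tdTneg SCA-1+ cells and 22.3 to 35.6 CPM in tdT+ SCA-1+ cells. Endothelial markers (6 genes) summed to 1607 and 1652 CPM in the tdTneg SCA-1+ libraries and to 6.06 to 418 CPM elsewhere. T cell markers (6 genes) summed to 327 to 817 CPM in tdT+ SCA-1+, 88.8 and 106 CPM in tdTneg SCA-1+, 67.6 to 72.6 CPM in tdT+ CD49f+CD34+ and 5.10 to 20.4 CPM in tdTneg CD49f+CD34+ cells. In these bulk samples, fewer cells of a type and less RNA per cell cannot be told apart.

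Gja1 was lower in tdT+ than in tdTneg libraries of both populations, without passing the test over all genes. In tdT+ CD49f+CD34+ cells Gja1 was at 320, 240 and 189 CPM (250 ± 66.0, SD, n = 3), and in tdTneg CD49f+CD34+ cells at 608, 603 and 374 CPM (528 ± 134, n = 3). In tdT+ SCA-1+ cells it was at 480, 423 and 307 CPM (403 ± 88.1, n = 3), and in tdTneg SCA-1+ cells at 575 and 530 CPM (553 ± 31.9, n = 2). Each tdT+ library lay below each tdTneg library of its population. In order of the group means, the highest 3 groups differed from their neighbours by less than the larger SD, while tdT+ CD49f+CD34+ cells stood 153 CPM below tdT+ SCA-1+ cells, more than the larger SD of 88.1, although the libraries overlapped.

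Gjb2 varied most between libraries, from 10.6 to 183 CPM, a 17.3-fold range. It was at 183, 65.9 and 10.6 CPM in tdT+ CD49f+CD34+ cells (86.6 ± 88.2, n = 3) and at 64.3, 136 and 28.4 CPM in tdTneg CD49f+CD34+ cells (76.3 ± 55.0, n = 3). In tdT+ SCA-1+ cells it was at 39.0, 75.7 and 24.96 CPM (46.6 ± 26.2, n = 3), and in tdTneg SCA-1+ cells at 65.8 and 127 CPM (96.7 ± 43.6, n = 2). All 4 groups overlapped, and no group mean differed from the next by more than the larger SD. The highest value within each CD49f+CD34+ group was in a library with high Alb, and the part of hepatocyte RNA in these values was not tested. Within CD49f+CD34+ cells the libraries with high Alb had 65.9, 136 and 183 CPM of Gjb2, and the others 10.6, 28.4 and 64.3 CPM. In the other population, the library labelled tdTneg SCA-1+ replicate 2 had 127 CPM of Gjb2 with 13.7 CPM of Alb.

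Gjb5 had the narrowest range over all 11 libraries, while within groups its biological coefficient of variation in edgeR, 0.2996, was above the 0.267 of Gja1. It was at 20.4, 32.2 and 34.3 CPM in tdT+ CD49f+CD34+ cells (29.0 ± 7.50, n = 3), at 21.2, 26.4 and 32.1 CPM in tdTneg CD49f+CD34+ cells (26.6 ± 5.41, n = 3) and at 30.8, 34.6 and 30.7 CPM in tdT+ SCA-1+ cells (32.0 ± 2.19, n = 3). The 2 tdTneg SCA-1+ libraries, at 35.2 and 17.2 CPM (26.2 ± 12.8), held both the highest and the lowest value of the series, a 2.05-fold range. No group mean of Gjb5 differed from the next by more than the larger SD.

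Gjb6 had low counts and a wide spread. It was at 21.03, 3.26 and 18.3 CPM in tdT+ CD49f+CD34+ cells (14.2 ± 9.57, n = 3), at 14.6, 21.2 and 8.46 CPM in tdTneg CD49f+CD34+ cells (14.7 ± 6.36, n = 3), at 9.32, 12.99 and 2.58 CPM in tdT+ SCA-1+ cells (8.30 ± 5.28, n = 3) and at 12.1 and 16.4 CPM in tdTneg SCA-1+ cells (14.2 ± 3.01, n = 2). The groups overlapped, and no mean differed from the next by more than the larger SD. The lowest value rested on 50 counts, for which the exact 95% Poisson interval is 1.86 to 3.31 CPM on the library total. That interval covers counting error only, and the 8.21-fold range of Gjb6 over libraries was far wider.

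**Figure D1:**
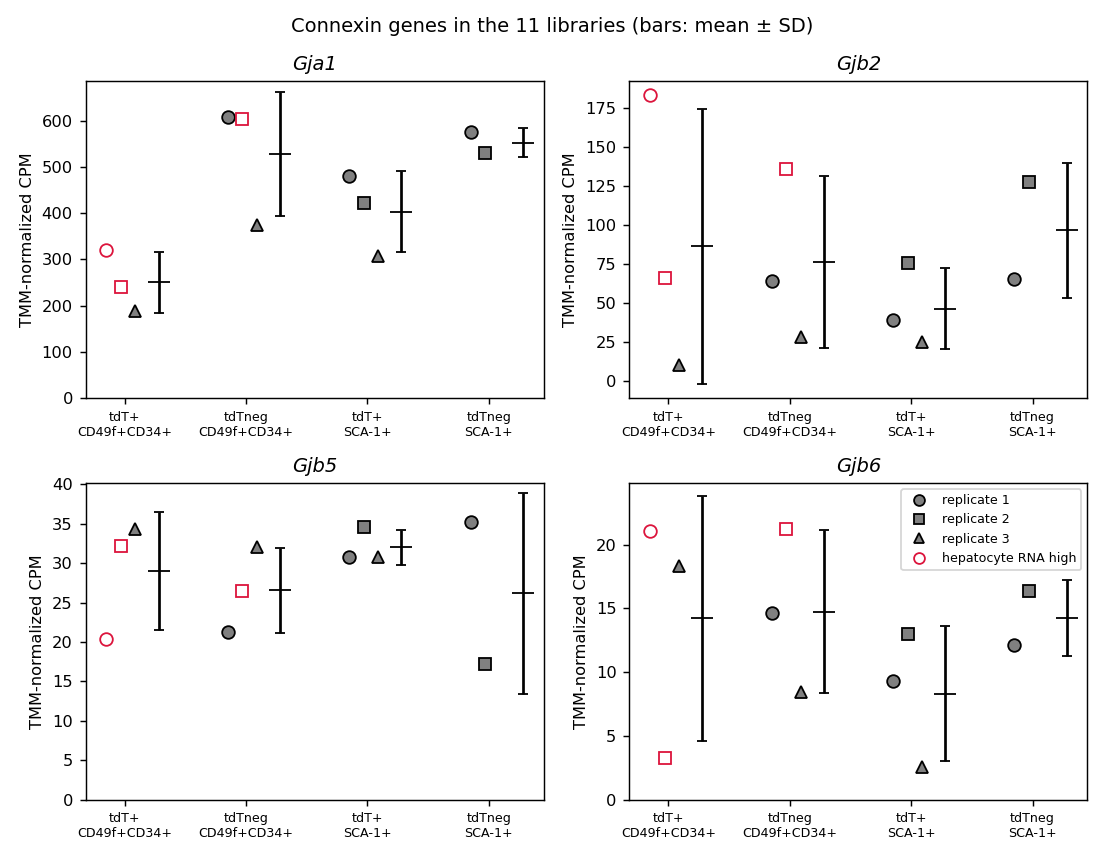
TMM-normalized CPM of the 4 connexin genes (1 panel each) in the 4 sorted groups, with SCA-1+ short for CD49f+CD34+SCA-1+. Points are libraries, shaped by replicate number, red open points are the 3 libraries with high hepatocyte RNA, and bars are the mean ± SD (n = 3, and n = 2 for tdTneg SCA-1+). Each tdT+ point of Gja1 lies below the tdTneg points of its population, while the groups of the other 3 genes overlap.

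Between genes, levels were compared per kilobase. Over the 8 libraries without high hepatocyte RNA, the median level per kb of all annotated exons was 44.0 CPM per kb for Gja1, 21.5 for Gjb2, 18.3 for Gjb5 and 4.69 for Gjb6. The level of Gja1 depended on the length used. Its exons span 10257 bases in all but 3182 bases in the longest coding transcript, and per kb of that transcript its median was 142 CPM per kb, against 21.5 for Gjb2, 18.3 for Gjb5 and 5.96 for Gjb6. The ranges over libraries of Gjb2 (4.39 to 53.0 CPM per kb) and Gjb5 (9.97 to 20.4) overlapped on both scales.

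**Figure D2:**
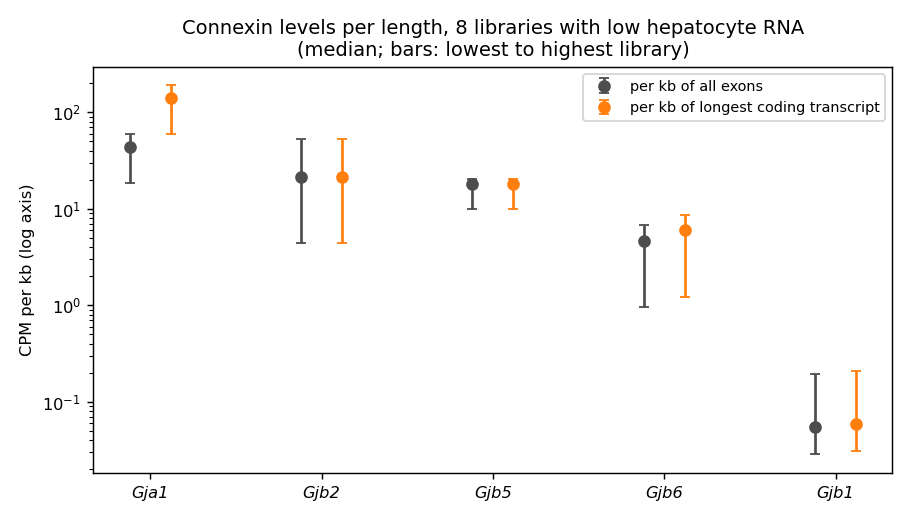
Level of 5 connexin genes in CPM per kb (log axis) over the 8 libraries with low hepatocyte RNA, per kb of all exons (grey) and of the longest coding transcript (orange). Points are medians and bars run from the lowest to the highest library. Gja1 moves from 44.0 to 142 CPM per kb with the length used, and Gjb1 lies under 0.21 CPM per kb on both scales.

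For the effect of tdT in CD49f+CD34+ cells, 0 of the 4 members were called by edgeR's quasi-likelihood test, where a call needs a Benjamini-Hochberg adjusted p under 0.05 over all genes and an absolute log2 fold change over 1, and 0.00985% of all genes tested were called. Gja1 had the clearest difference, with a log2 fold change of -1.08 (SE 0.26, 95% interval -1.66 to -0.50), an unadjusted p of 0.00193 and an adjusted p of 0.241 in edgeR. It was lower in each of the 3 tdT+ libraries than in each tdTneg library, as were 10.9% of all genes tested. No cell type marker was called in this comparison. Median log2 fold changes were 3.32 for T cell, 1.92 for endothelial, 1.74 for Langerhans cell, 1.66 for suprabasal and 0.83 for upper follicle markers. They were 0.16 for stress keratins, -0.64 for melanocyte, -0.43 for bulge, -0.26 for basal interfollicular and -0.21 for fibroblast markers. Their part in the Gja1 value was not tested. For Gja1 the exact two-sided permutation test over these 6 libraries gave p = 0.10, the smallest that 20 arrangements allow. It took libraries as independent, although those of 1 replicate number share a pool of mice. Without the 3 libraries with high hepatocyte RNA, the log2 fold change was -1.37 with an adjusted p of 0.209 in edgeR, then on 1 tdT+ library that is assumed to vary like the others. Leaving out replicate 2 of tdT+ CD49f+CD34+ cells gave a log2 fold change of -1.05 (edgeR, adjusted p = 0.513). With all genes of at least 1 count kept, 1 of 4 members was called (Gja1, -1.07, edgeR, adjusted p = 0.0320), against 0.402% of the 41302 genes then tested, and DESeq2 gave -0.99 with an adjusted p of 0.0106, short of the fold threshold. With replicate number as a block, Gja1 had -1.08 with an adjusted p of 0.0759 in edgeR, 0 members were called and 4 of all genes were called in place of 2. Over all 19 alternatives the adjusted p of Gja1 ran from 0.0106 to 0.963 and its fold change stayed negative. Since each tdT+ library of Gja1 lay below each tdTneg library here, leaving out libraries could hardly turn that sign. Gjb2, Gjb5 and Gjb6 had log2 fold changes of 0.18, 0.12 and -0.05, with 95% intervals from -1.72 to 2.09, -0.52 to 0.77 and -1.60 to 1.49. Without the 3 libraries Gjb2 turned to -2.13 (95% interval -3.78 to -0.48, edgeR adjusted p = 0.372), a value resting on the single tdT+ library at 10.6 CPM.

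In CD49f+CD34+SCA-1+ cells, 0 of the 4 members were called between tdT+ and tdTneg, against 2.31% of all genes tested. Gja1 was again lower in each tdT+ library, as were 17.2% of genes, with a log2 fold change of -0.45 (95% interval -1.09 to 0.18, edgeR, adjusted p = 0.532). Gjb2, Gjb5 and Gjb6 had log2 fold changes of -1.05, 0.29 and -0.78 with intervals that included 0. Exact permutation tests over these 5 libraries, which also ignored the shared pools, cannot go below p = 0.10. Endothelial markers differed between the same groups, with 2 of 6 called lower in tdT+ cells, T cell markers with 3 of 6 called higher and bulge markers with 3 of 6 called lower (median log2 fold change -1.88), and their part in the connexin values was not tested. The difference in tdT effect between the populations was called for 0 of 4 members, against 0.389% of genes, and for Gja1 it was 0.62 on the log2 scale (95% interval -0.24 to 1.49, edgeR, adjusted p = 0.558). The mean tdT effect over both populations, a comparison added after the data were seen, was -0.77 for Gja1 (SE 0.19, 95% interval -1.19 to -0.34, edgeR, adjusted p = 0.0868), and 0 of 4 members were called against 1.49% of genes. With the replicate block it was -0.68 (edgeR, adjusted p = 0.0193), short of the fold threshold, and the adjusted p of Gja1 was under 0.05 in 3 of 18 alternatives, with 0 calls. In this comparison 5 of 6 T cell markers (median log2 fold change 3.32) and 1 of 6 suprabasal markers were called higher in tdT+ cells and 3 of 6 bulge markers lower. Their part in the values of Gja1, and of the connexin partner genes given below, was not tested.

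Without the 3 libraries the mean tdT effect was -0.91 for Gja1 (edgeR, adjusted p = 0.0551) and -1.59 for Gjb2 (edgeR, adjusted p = 0.0943), against -0.44 for Gjb2 with all 11. These values moved with single libraries. Leaving out replicate 3 of tdTneg CD49f+CD34+ cells as well gave a call for Gja1 (-1.07, edgeR, adjusted p = 0.0301), where 2.4% of genes were called. That fit holds 1 tdT+ and 1 tdTneg CD49f+CD34+ library, so its spread comes from the SCA-1+ groups. Leaving out replicate 2 of tdT+ SCA-1+ cells instead gave a call for Gjb2 (-1.88, edgeR, adjusted p = 0.0201), where 4.87% of genes were called. Over the 7 such fits the log2 fold change was negative for both genes. For Gja1 each tdT+ library lay below each tdTneg library of its population, so its sign could hardly turn.

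When SCA-1+ cells were set against SCA-1neg cells, averaging the tdT+ and tdTneg effects, 0 of the 4 members were called, against 11.6% of all genes tested (4.77% higher and 6.79% lower in SCA-1+ cells). The log2 fold change was 0.38 for Gja1 (95% interval -0.05 to 0.80), -0.28 for Gjb2 (-1.71 to 1.15), 0.06 for Gjb5 (-0.42 to 0.54) and -0.41 for Gjb6 (-1.58 to 0.75). The median over the 4 was -0.11, beside -0.09 over all genes. At an unadjusted p under 0.05 edgeR gave 0 of 4 members in this comparison (34.4% of all genes), 0 within tdTneg cells (21.1%), 0 between tdT+ and tdTneg SCA-1+ cells (14.6%) and 0 for the difference between populations (12.4%). It gave 1 member, Gja1, within tdT+ cells (30.5% of all genes), between tdT+ and tdTneg CD49f+CD34+ cells (8.42%) and for the mean tdT effect (13.03%). DESeq2 called 0 members in all 7, where it called 332 to 3313 genes.

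The direction for Gjb2 was not stable. It turned on leaving out replicate 1 of tdT+ CD49f+CD34+ cells (0.31) or replicate 2 of tdTneg CD49f+CD34+ cells (0.080), and with only the 32-week libraries (0.51). Without the 3 libraries its log2 fold change between the populations was 1.60 (SE 0.45, 95% interval 0.60 to 2.60), with an adjusted p of 0.0312 in edgeR, and 1 of 4 members was called against 14.5% of all genes. The remaining CD49f+CD34+ libraries had 10.6, 64.3 and 28.4 CPM and the SCA-1+ libraries 24.96 to 127 CPM, so the groups overlapped. In the same fit 6 of 6 endothelial, 6 of 6 T cell, 5 of 6 Langerhans cell, 4 of 6 suprabasal and 2 of 6 basal interfollicular markers and 2 of 3 stress keratins were called higher in SCA-1+ cells, and 6 of 6 bulge and 2 of 6 melanocyte markers lower, and their part in the Gjb2 value was not tested. The upper follicle marker Krt17 was also lower in SCA-1+ cells, and its part was not tested. For Gjb2 an exact two-sided permutation test over the 5 and 3 libraries gave p = 0.214, with 0.0179 the smallest that 56 arrangements allow. The edgeR call was lost when the library labelled tdTneg CD49f+CD34+ replicate 3 (1.36, adjusted p = 0.0659) or tdTneg CD49f+CD34+SCA-1+ replicate 2 (1.32, adjusted p = 0.0944) was also left out. With all 11 libraries, the exact test gave p = 0.996 for Gjb2, 0.333 for Gja1, 0.749 for Gjb5 and 0.468 for Gjb6. These permutation tests took libraries as independent, although libraries of the same replicate number share a pool of mice.

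Within tdT+ cells, 0 of 4 members were called between the populations, against 8.45% of genes. Gja1 was 0.69 higher in SCA-1+ cells on the log2 scale (95% interval 0.11 to 1.26, edgeR, adjusted p = 0.106), and 1.09 without the 3 libraries (edgeR, adjusted p = 0.0704). Within tdTneg cells, 0 of 4 were called against 4.74% of genes, and Gja1 had a log2 fold change of 0.06 (95% interval -0.57 to 0.70). Gjb5 stayed near 0 in both, at 0.14 and -0.02.

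**Figure D3:**
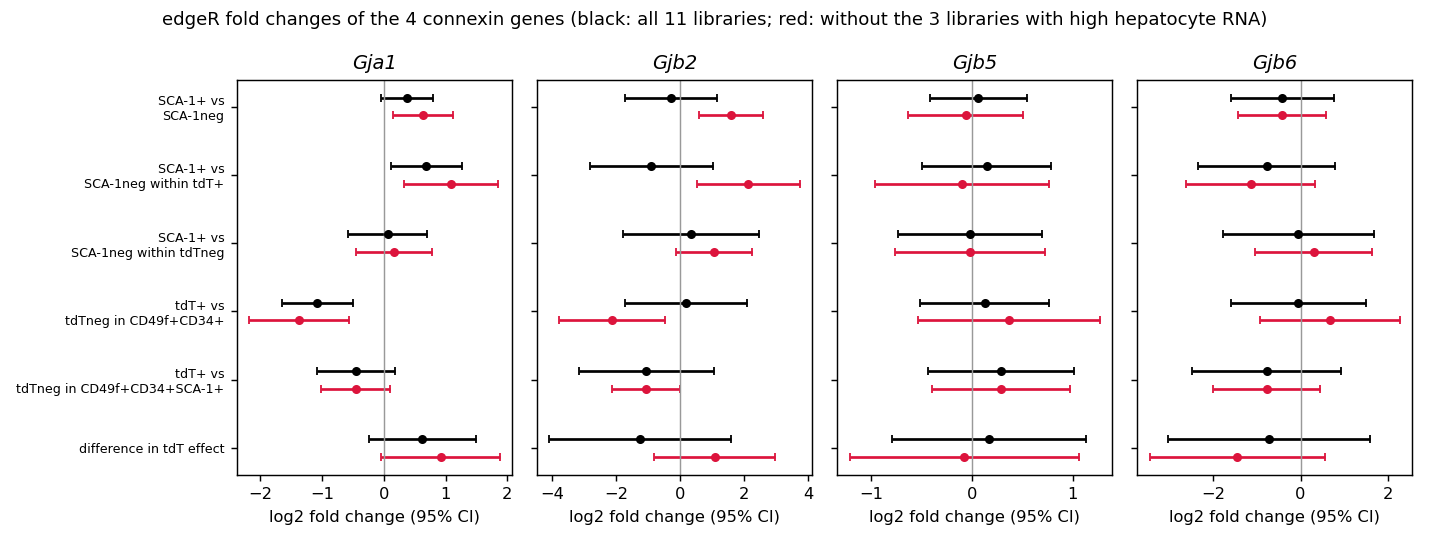
Log2 fold changes of the 4 genes (1 panel each, horizontal axis with its own scale) in the 6 comparisons, from edgeR with 95% confidence intervals. Black points use all 11 libraries and red points leave out the 3 with high hepatocyte RNA. Gja1 lies at -1.08 and -1.37 for tdT+ against tdTneg in CD49f+CD34+ cells, and Gjb2 moves from -0.28 to 1.60 between the populations.

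Across the 11 libraries, log2 CPM of Gja1 and Gjb2 had a Pearson r of 0.55, and of 0.79 after the group means were removed. Over the 8 libraries with low hepatocyte RNA r was 0.88. Both genes were lowest in replicate 3 in each of the 3 groups that have one. Libraries of 1 replicate number share a pool of mice and an age, so the points are not independent. Gjb2 and Gjb5 went opposite ways (r = -0.62 over 11 libraries and -0.57 over 8). Gjb2 and its neighbour Gjb6 had r = 0.36. The 5 genes most like Gja1 in log2 CPM were Pitpnm3 (r = 0.93), Shkbp1 (0.90), Pcdhga7 (0.89), Sox4 (0.88) and Rhob (0.88). For Gjb2 they were Gm44570, Gm44130, Gm27252, Entpd7 and Rassf4 (r from 0.92 to 0.94), for Gjb5 Gm6472, Gm19170, Gm10479, 3110040N11Rik and Gm3045 (0.83 to 0.87), and for Gjb6 Zakit, 1700034H15Rik, Sh3rf3, Tango6 and 9430031K09Rik (0.87 to 0.89). With 11 libraries and 20307 genes, such values are descriptions of these libraries.

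Of the 16 other connexin genes, 10 passed the filter on low counts, and 1 was called between the populations, Gjb1, a share near the 11.6% of all genes. It was at 93.4, 57.5 and 73.5 CPM in the 3 libraries with high hepatocyte RNA and at 0.0488 to 0.330 CPM in the other 8. Its counts per 1000 Alb counts were 9.79, 13.1 and 12.1 in those 3 and 3.73 to 27.9 in the other 8, there from 1 to 6 Gjb1 counts. The log2 fold change of -8.22 between the populations (edgeR, adjusted p = 0.0358) became -0.39 without them (edgeR, adjusted p = 0.868). For Gjb2 the counts per 1000 Alb counts were 19.2, 15.03 and 22.4 in the 3 libraries and 284 to 21177 in the others.

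**Figure D4:**
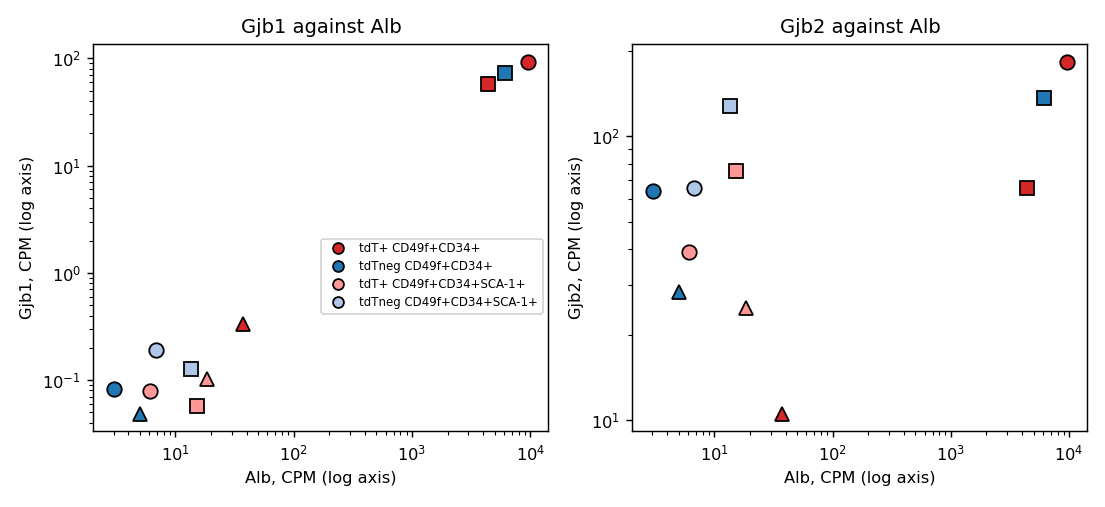
CPM of Gjb1 (left) and Gjb2 (right) against CPM of Alb, all on log axes, for the 11 libraries, coloured by group and shaped by replicate number (circle 1, square 2, triangle 3). Gjb1 is at 57.5 to 93.4 CPM in the 3 libraries with Alb at 4387 CPM or more and under 1 CPM in the others, while Gjb2 runs from 10.6 to 127 CPM at low Alb.

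Pannexins form channels of a similar build to the unpaired connexin hexamer. Of 3 pannexin genes, 1 was called between the populations and within tdT+ cells, where 11.6% and 8.45% of all genes were called. Panx1, which encodes an ATP-release channel, was at 17.1 to 26.6 CPM in the 6 CD49f+CD34+ libraries, at 65.8 to 71.3 CPM in tdT+ SCA-1+ and at 44.6 and 36.8 CPM in tdTneg SCA-1+ libraries, with no overlap between the populations, as for 5.1% of all genes on the higher side. Its log2 fold change was 1.26 (SE 0.14, edgeR, adjusted p = 0.000388), 1.75 within tdT+ cells (edgeR, adjusted p = 0.000604) and 1.37 without the 3 libraries (edgeR, adjusted p = 0.000291). Within tdTneg cells it was 0.78 and was not called (edgeR, adjusted p = 0.0548). Between the populations 6 of 6 T cell markers were also called higher (median log2 fold change 3.73). So were 4 of 6 Langerhans cell, 4 of 6 suprabasal (median 1.75) and 3 of 6 basal interfollicular markers. With them, 1 of 6 upper follicle markers and 2 of 3 stress keratins were called higher. Called lower were 6 of 6 bulge, 6 of 6 hepatocyte and 3 of 6 melanocyte markers. Within tdT+ cells 5 of 6 T cell, 3 of 6 basal interfollicular and 1 of 6 suprabasal markers were called higher. There 1 of 3 stress keratins was called higher too. In that comparison 5 of 6 bulge, 2 of 6 melanocyte and 1 of 6 upper follicle markers were called lower. Their part in the values of Panx1 and of the partner genes was not tested.

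Among 10 genes whose products bind or modify connexins, Tjp3, which encodes a zonula occludens scaffold, rose in SCA-1+ cells by 1.06 on the log2 scale (edgeR, adjusted p = 0.0117). Without the 3 libraries it was not called, at 1.005 (edgeR, adjusted p = 0.0548), and the call held in 14 of 18 alternatives. Dbn1, which encodes the actin-binding protein drebrin, fell by 1.88 (edgeR, adjusted p = 0.0149), from 6.58 to 31.3 CPM in CD49f+CD34+ to 1.25 to 11.8 CPM in SCA-1+ libraries, and the call held without the 3 libraries (-1.82). Within tdT+ cells Dbn1 was the 1 partner of 10 called, against 8.45% of all genes (-2.21, edgeR, adjusted p = 0.0332), a call lost without the 3 libraries at a similar fold change (-2.26, adjusted p = 0.0562) and held in 11 of 19 alternatives. Within tdTneg cells 2 of 10 were called, against 4.74% of all genes. Tjp1, which encodes ZO-1, a direct binder of connexin 43, was called higher (1.07, edgeR, adjusted p = 0.00694), and in 17 of 19 alternatives too. The kinase gene Src was called lower (-1.02, edgeR, adjusted p = 0.0455), a call that held in 5 of 19 alternatives, with an adjusted p up to 0.693. In this comparison 2 of 6 endothelial markers were also called higher in SCA-1+ cells (median log2 fold change 5.13). So were 3 of 6 Langerhans cell, 5 of 6 T cell, 3 of 6 suprabasal and 2 of 6 upper follicle markers. With them, 1 of 6 basal interfollicular markers and 1 of 3 stress keratins were called higher. Called lower were 4 of 6 bulge and 1 of 6 melanocyte markers. The part of these markers in the values of Tjp1 and Src was not tested. Between tdT+ and tdTneg cells, 0 of these 10 genes, 0 of 3 pannexins and 0 of the 10 other connexins tested were called in either population, where 0.00985% and 2.31% of all genes were called. Gjc1, which encodes connexin 45, and Ccn3, which encodes a matricellular protein that binds connexin 43, were called without the 3 libraries within tdTneg cells and between tdT+ and tdTneg SCA-1+ cells, and not between the populations (1.16 and 1.38, edgeR, adjusted p = 0.288 and 0.242). Gjc1 was at 7.49 and 5.69 CPM in those 2 libraries and at 0.213 to 2.56 CPM in the other 9, and Ccn3 at 19.1 and 17.9 CPM against 0.0799 to 7.38 CPM. Within tdTneg cells Gjc1 was 3.78 and Ccn3 5.09 higher in SCA-1+ cells on the log2 scale (edgeR, adjusted p = 0.0328 and 0.0143), where 9.05% of genes were called. Between tdT+ and tdTneg SCA-1+ cells the log2 fold changes were -3.72 and -4.86 (edgeR, adjusted p = 0.0265 and 0.0111), where 5.41% of genes were called. With all 11 libraries neither was called in these comparisons (edgeR, adjusted p from 0.111 to 0.230). The same 2 libraries had the high sums of endothelial markers, whose part in these values was not tested. For the mean tdT effect Tjp3 was called higher in tdT+ cells (1.24, edgeR, adjusted p = 0.0318), 1 of 10 partners against 1.49% of all genes, a call that held in 8 of 18 alternatives, with an adjusted p up to 0.274.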

How the data were processed

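RNA of sorted epidermal cells was measured in 11 libraries. The deposited files hold raw counts per gene, which the authors made with STAR and featureCounts on mm10 and Ensembl release 96. The strand setting is not given in the sources used here. Symbols, positions and lengths came from GENCODE M21, which matched all 55536 gene IDs. A row outside these genes (0.000205% to 0.0307% of counts per library) was kept out of totals and tests. Counts were fitted in R 4.3.3 with edgeR 4.0.16 (TMM, filterByExpr, quasi-likelihood test, 1 mean per group, 20307 genes), with DESeq2 1.42.0 as an alternative. CPM are TMM-scaled, log2 CPM use a prior count of 2, and permutation tests used scipy with libraries taken as independent. The fit was tested on simulated data. The members and lists were chosen with earlier results of these data known. Named genes were the members, the genes of the other connexin, pannexin and partner lists called in any comparison, the 5 genes with the highest r to each member, and the genes of the sorted proteins. Some list genes are not reported here. Other genes were named after their values were seen. Replicate number names a pool of 2 mice per the study's methods, which state no block, and it was a block in an alternative. Deviations of libraries with the same number had a median correlation of 0.083 (from -0.415 to 0.589, over 0.1 in 7 of 15 pairs), against -0.023 in 30 other pairs. The lists of hepatocyte, Xist and Y-linked genes, the fits without 3 libraries, and without 1 more (same genes tested), and the mean tdT effect were added after seeing the data.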

Additional observations from a re-analysis of the deposited data

Results flagged for a closer look

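A row outside the gene annotation, which no comparison uses, was above the highest tdTneg library (4.89 CPM) in 5 of the 6 tdT+ libraries. It stood at 133 and 252 CPM in tdT+ CD49f+CD34+ replicates 1 and 3, and at 254, 224 and 307 CPM in tdT+ CD49f+CD34+SCA-1+ replicates 1, 2 and 3.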

How the results depend on the processing

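The number of members called was 0 in each comparison and stayed 0 under the alternatives that changed 1 choice, except that it became 1 without the 3 libraries with hepatocyte RNA (Gjb2, SCA-1+ against SCA-1neg) and 1 with genes of at least 1 count kept (Gja1, tdT+ against tdTneg in CD49f+CD34+). With 1 more library left out beside the 3, Gja1 or Gjb2 was called for the mean tdT effect in 2 of 7 fits. Without the 3 libraries log2 fold changes turned for Gjb2 (1.60 between the populations, 2.14 within tdT+, -2.13 for tdT in CD49f+CD34+, 1.08 for the difference in tdT effect), Gjb5 (-0.062, -0.100 and, for the difference, -0.076) and Gjb6 (0.30 within tdTneg, 0.67 for tdT in CD49f+CD34+). With only 32-week libraries they turned for Gjb2 (0.51 between the populations, 0.39 within tdT+, -1.11 for tdT in CD49f+CD34+), Gjb5 (-0.40 and -0.027) and Gjb6 (0.14 within tdTneg). Values near 0 turned within tdTneg for Gjb5 and Gjb6 with RLE size factors (0.061, 0.020), at least 10 counts (0.066, 0.016) and DESeq2 (0.062, 0.020), and for Gjb5 with only the groups compared (0.034). Gjb6 for tdT in CD49f+CD34+ became 0.025, 0.027 and 0.025 under the first 3, and the mean difference of log2 CPM in the exact permutation test was 0.024 for Gjb2 between the populations. The cause of these turns was not tested.

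With the replicate block, values within tdTneg became -0.10 for Gja1, -0.14 for Gjb2 and 0.079 for Gjb5, and for tdT in CD49f+CD34+ -0.029 for Gjb2 and 0.14 for Gjb6. The block changed no call of a member.

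Leaving out 1 library at a time, values between the populations ran from -0.56 to 0.31 for Gjb2 and -0.24 to 0.27 for Gjb5, and within tdT+ from -1.45 to 0.28 and -0.055 to 0.28. Those of Gjb6 ran from -0.65 to -0.20 between the populations and from -1.27 to -0.35 within tdT+. For tdT in SCA-1+ cells Gjb6 ran from -1.31 to -0.35, and for the difference from -1.28 to -0.30. Within tdTneg they ran from -0.13 to 0.18 (Gja1), -0.21 to 1.06 (Gjb2), -0.63 to 0.40 (Gjb5) and -0.33 to 0.30 (Gjb6). For tdT in CD49f+CD34+ they ran from -0.997 to 0.90 (Gjb2), -0.015 to 0.32 (Gjb5) and -0.45 to 0.42 (Gjb6), for tdT in SCA-1+ cells from -0.14 to 0.90 (Gjb5) and -1.65 to -0.50 (Gjb2), and for the difference from -0.26 to 0.78 (Gjb5). Over all genes, counts of calls moved by over 1.5 times. For tdT in CD49f+CD34+ 2 genes were called, against 332 with DESeq2, 166 with at least 1 count, 20 with at least 10 counts, 31 without the 3 libraries, 5 with RLE size factors, 4 with the replicate block and 0 with only 32-week libraries or only these groups. For tdT in SCA-1+ cells 470 were called, against 1126 with DESeq2, 885 with at least 1 count, 1098 without the 3 libraries and 0 with only 32-week libraries. For the difference 79 were called, against 777, 568, 186 and 0 in that order, and 263 with at least 10 counts, and for the mean tdT effect 302 against 709, 521, 617 and 0. Within tdTneg 963 were called, against 2071 with DESeq2, 1838 without the 3 libraries, 1452 with only these groups and 0 with only 32-week libraries, and within tdT+ 1715 against 3143 with DESeq2 and 157 with only 32-week libraries. Between the populations 2347 were called, against 3917 with no fold threshold and 232 with only 32-week libraries, and without the 3 libraries 1852 were higher and 1083 lower against 968 and 1379. RLE size factors moved the median of all genes for the difference from 0.048 to -0.071. Leaving out 1 library moved these counts too, for example to 1 for the difference without replicate 2 of tdTneg SCA-1+ cells.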
